A study of Homo sapiens with 16 samples.

Results

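The nuclear-encoded mitochondrial genes described here are those whose gene name in a table of Argonaute 2 (Ago2) binding peaks starts with a symbol of the respiratory chain (NDUF, COX followed by a digit, UQCR, SDHA to SDHD, ATP5, CYC1, CYCS), of the mitochondrial ribosome (MRPL, MRPS), of protein import (TIMM, TOMM), or with VDAC, CHCHD, IDH or TFAM. The names picked 33 of the 2213 genes in the table, and the rule uses names only, although it was written with earlier results of these data known. All cultures were of 293S, a human line derived from embryonic kidney. Of these, 2 received no treatment and 2 received hippuristanol at 1 µM for 30 min. Hippuristanol is a natural product that inhibits eIF4A, the helicase that unwinds the 5′ leader of an mRNA before ribosomes can scan it. From every culture came 1 RNA-seq library and 3 CLIP libraries, in which Ago2 was crosslinked to RNA and precipitated with an antibody from Abnova, Santa Cruz or Sigma. That makes 12 CLIP libraries, 6 per treatment, and the 3 of a culture are no separate replicates.

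The deposited table holds, for each peak, 1 log average over both treatments and 1 log ratio of hippuristanol over untreated cells, pooled by the authors over libraries. No source used here names the logarithm's base, so values stay in the authors' log units and are not turned into folds. With 1 pooled value per peak there is no replicate check, the depth of each library is unknown, and no test between treatments was possible. RNA levels were not analysed here, so more Ago2 on an mRNA and more of that mRNA cannot be told apart. The gene value used below is the median over the distinct peaks of a gene, and the median of the gene values over all 2213 genes, 0.17, is called the all-gene median. No gene of a list of 11 markers of blood, liver, connective tissue, epithelial, glial, muscle or endocrine cells had a peak, but only 10.4% of all protein-coding genes had one, so a table of Ago2 peaks cannot check the identity of the cells.

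Most proteins of mitochondria are encoded in the nucleus, translated in the cytosol and imported through the TOM complex of the outer membrane and the TIM complexes of the inner membrane. Complexes I to IV of the respiratory chain pass electrons to oxygen, all but complex II pump protons on the way, and ATP synthase uses the proton gradient to make ATP. The mitochondrial ribosome, whose proteins are all imported, makes the few subunits that mitochondrial DNA encodes. Ago2 carries microRNAs, which usually pair through their seed, bases 2 to 8, with sites in the 3′ untranslated region (3′ UTR) of an mRNA.

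The 33 genes had 42 peaks with distinct values, after 1 pair of overlapping peaks with identical values, in COX6A1, was counted once. Counted in this way, 26 of them (78.8%) had a single peak, COX6A1 included, against 1463 of all 2213 genes (66.1%), and none had more than 3. They comprised 16 genes of the respiratory chain and its assembly, 8 of the mitochondrial ribosome, 4 of protein import and 5 others. The names of 32 genes stand for proteins or assembly factors of mitochondria. The exception is IDH1, whose product is the isocitrate dehydrogenase of the cytosol and peroxisomes and is kept here because the name rule picked it. One entry, NDUFC2-KCTD14, is a read-through transcript that joins the complex I subunit NDUFC2 to its neighbour, and reads from the 2 genes may be shared between them. Many of these genes also have processed pseudogenes, and the authors' treatment of reads that map to several places is not stated.

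Ago2 peaks were found on a minority of the genes with such names. In the RefSeq annotation (GRCh38.p14), 231 nuclear protein-coding genes have a current symbol that meets the name rule, and 35 of them (15.2%, exact 95% interval 10.8% to 20.4%) had a peak, against 2084 of all 20043 protein-coding genes (10.4%). Neither count was limited to genes expressed in these cells, because RNA levels were not analysed. Whether the shares differ among genes of similar expression was therefore not tested. ATP synthase had a peak on 6 of 20 genes, the outer membrane import genes on 3 of 10 and complex II on 2 of 4. Complex I had a peak on 5 of 38 genes, complex IV on 2 of 17, the large ribosomal subunit on 4 of 49 and the small subunit on 4 of 28. None of the 10 genes of complex III had one, nor had CYCS, which encodes cytochrome c. The exact 95% intervals of such small classes are wide. They were 11.9% to 54.3% for ATP synthase, 6.76% to 93.2% for complex II and 0% to 30.8% for complex III. Differences between the classes were not tested. The 6 genes of ATP synthase include 2 that the table lists under older names, C14orf2 and USMG5, which the name rule did not pick.

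To show which microRNA pairing these mRNAs offer, the annotated 3′ UTRs (GENCODE 29) of the 17 members with a 3′ UTR peak were searched, on the mRNA strand only, for the 7-nt match to bases 2 to 8 of 8 microRNAs (let-7a, miR-17, miR-16, miR-19b, miR-92a, miR-103a, miR-10a and miR-30a). The 5 microRNAs with a match in at least 1 member are shown 5′ to 3′ with their seeds in capitals, as RefSeq (GRCh38.p14) gives the mature sequences.
hsa-miR-17-5p: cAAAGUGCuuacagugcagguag
hsa-miR-16-5p: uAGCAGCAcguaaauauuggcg
hsa-miR-19b-3p: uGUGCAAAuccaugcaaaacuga
hsa-miR-92a-3p: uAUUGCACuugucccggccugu
hsa-miR-30a-5p: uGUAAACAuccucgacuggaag
The match searched for was GCACTTT for miR-17, TGCTGCT for miR-16 and TTTGCAC for miR-19b. It was GTGCAAT for miR-92a and TGTTTAC for miR-30a. The other matches were CTACCTC for let-7a, ACAGGGT for miR-10a and ATGCTGC for miR-103a, which shares all but its first letter with the start of the miR-16 match.

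Among the 17 members, 9 (52.9%) held at least 1 of the 8 matches, against 1160 of all 1510 genes with a 3′ UTR peak and an annotated 3′ UTR (76.8%). There were 12 matches in these 9 genes. The miR-16, miR-92a and miR-30a matches were each found in 3 members (17.6%), where 34.3%, 19.5% and 27.4% of the 1510 genes held them. The miR-17 match was found in 2 members (11.8%, against 33.1%) and the miR-19b match in 1 (5.88%, against 27.0%). No member held a match to let-7a, miR-103a or miR-10a, which 12.6%, 18.4% and 14.5% of the 1510 genes held. The members without a match had a median 3′ UTR of 218.5 nt and those with one of 1072 nt, so the lengths differ along with the matches. Among the 1510 genes these medians were longer, 498.5 nt and 2136.5 nt. A longer 3′ UTR offers more places for a match, and the shares were not compared at equal length.

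Members with several peaks or with several matches show what the sites look like. They are printed from the GENCODE transcripts with the match in capitals, and with 11 bases on each side. MRPL17, a protein of the large ribosomal subunit, held 3 matches within the first 324 nt of a 3′ UTR of 1336 nt.
MRPL17, miR-17: aggcctttggaGCACTTTtactctctgag
MRPL17, miR-19b: atgaccctctcTTTGCACaatagataaaa
MRPL17, miR-92a: atttttggttaGTGCAATtttgtttttct
TOMM20, miR-30a: accaaagttaaTGTTTACtttgtgtagat
TOMM20, miR-16: tatgtgaggtgTGCTGCTgtgctgggtta
MRPL19, miR-16: gatttattctcTGCTGCTttgttctccca
CHCHD10, miR-92a: aagacacaaatGTGCAATtaaaagtttat
The match in CHCHD10 lies at bases 145 to 151 of a 3′ UTR of 173 nt, which held both of its peaks. The peaks are listed on hg19 and the transcripts are annotated on GRCh38, so whether a match lies under a peak was not determined. The median gene value was 0.32 for the 9 members with a match and −0.05 for the 8 without, against 0.18 and 0.15 for all genes with a 3′ UTR peak. The 9 ran from −0.98 in IDH1 to 0.44 in TOMM5. The 8 ran from −0.80 in ATP5J2 to 1.05 in NDUFA2, so the values overlap, and the difference was not tested.

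As a whole the mitochondrial genes were spread around the all-gene median. Their median gene value was 0.25 with quartiles of −0.29 and 0.40, against 0.17 with quartiles of −0.28 and 0.58 for all genes. When only CDS peaks were used, the members' median was 0.03, over the 17 members with such a peak, against 0.15 for all genes. Over the 14 members with a log average above the median of all genes it was −0.02. All genes above that limit had 0.13. Of the 33 members 18 lay above the all-gene median, where 50% of all genes lie above it, and 20 lay above 0, where 60.5% of all genes do. A gene value above 1 was found for 3 members, ATP5E, TOMM70A and NDUFA2, where 9.17% of all genes have one, and a value below −1 for 1 member, NDUFAF4, where 3.43% have one. The standard deviation of the gene values was 0.66 over the 33 members, 0.54 without ATP5E and 0.64 over all genes. The plot of each member's peaks shows that both high and low values occur in every group.

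**Figure D1:**
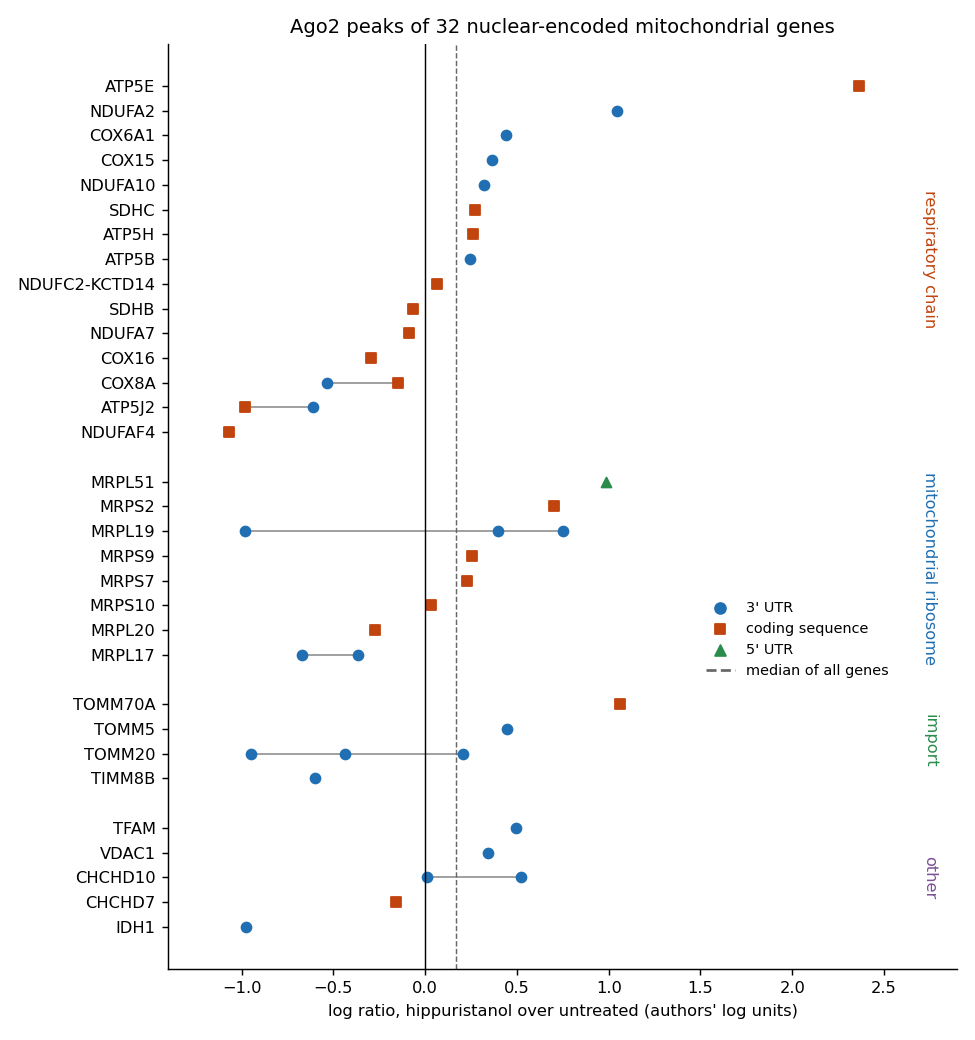
Log ratio of hippuristanol over untreated cells (horizontal axis, authors' log units) for 40 peaks of 32 members, 1 row per gene, ordered by gene value within each group; grey lines join peaks of 1 gene, and symbols give the part of the mRNA. ATP5E stands alone at 2.36, and the other peaks lie between −1.07 and 1.06.

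The respiratory chain, the mitochondrial ribosome and the import genes had overlapping values. The median was 0.15 for the 16 genes of the respiratory chain (quartiles −0.31 and 0.33), 0.24 for the 8 of the mitochondrial ribosome (−0.05 and 0.48) and 0.00 for the 4 import genes, which ranged from −0.60 to 1.06. Above the all-gene median lay 8 of the 16, 5 of the 8 and 2 of the 4, and 3 of the 5 other members. The sign of these medians depended on which peaks were used. With CDS peaks only, the median of the respiratory chain was −0.08. With 3′ UTR peaks only, the mitochondrial ribosome had −0.06, over 2 genes, and the import genes −0.44, over 3. None of these medians includes C14orf2 and USMG5, 2 ATP synthase genes outside the name rule, whose log ratios were −0.93 and −1.09.

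**Figure D2:**
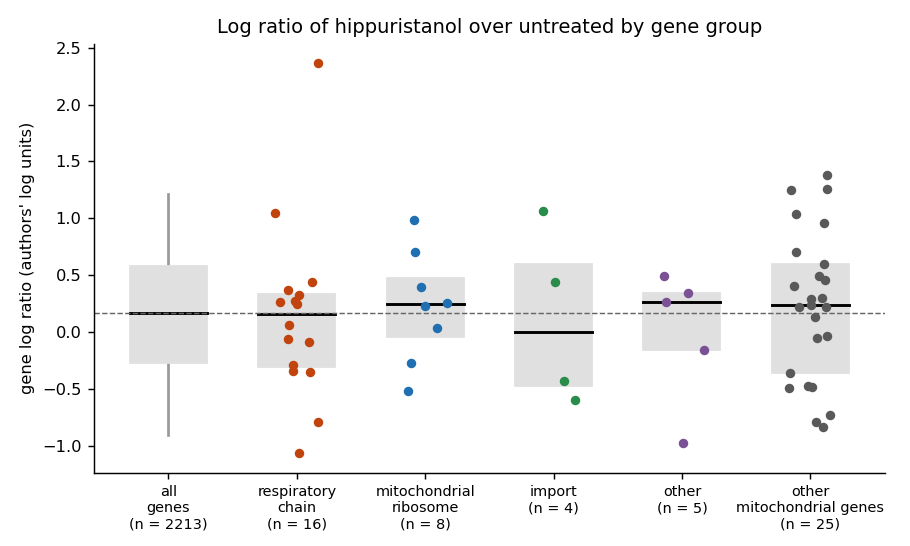
Gene values (vertical axis, authors' log units) by group, with 1 point per gene, black lines for medians and grey boxes from the lower to the upper quartile; the dashed line is the all-gene median, and the grey line through all genes spans their central 90%. The boxes of all groups overlap that of all genes.

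With 4 members, ATP synthase held both the highest gene value of the members and 1 of the lowest. Its 2 genes outside the name rule, C14orf2 and USMG5, had −0.93 and −1.09. Both values lie below the lowest of the 4, ATP5J2 at −0.80. ATP5E, the epsilon subunit in the central stalk (current symbol ATP5F1E), had 1 peak in coding sequence (chromosome 20, 57605430 to 57605469, minus strand, hg19). Its gene value of 2.36 ranked 2 among the 2213 genes, and its log average of −6.64 was near the median of all genes, −6.30. Its coding sequence, of 156 nt, was the shortest among the members, shared with TOMM5. ATP5J2, subunit f of the membrane part (ATP5MF), had 2 peaks 877 nt apart on the genome, both low: the authors' deposited table gives a log ratio of −0.61 in the 3′ UTR (chromosome 7, 99055884 to 99055920, minus strand) and −0.98 in coding sequence (99056797 to 99056834). Its log averages in the authors' deposited table were −5.87 and −6.08. ATP5B, the catalytic beta subunit (ATP5F1B), and ATP5H, subunit d of the peripheral stalk (ATP5PD), had gene values of 0.25 and 0.26, from 1 peak each, close to the all-gene median.

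The 5 genes of complex I, the NADH dehydrogenase, had a median of 0.06, and 2 of them lay above the all-gene median. NDUFA2, an accessory subunit of the matrix arm, was the highest, with 1.05 from 1 peak in its 3′ UTR (chromosome 5, 140025075 to 140025122, minus strand) and a log average of −4.58. NDUFA10, another accessory subunit, had 0.32, the read-through NDUFC2-KCTD14 0.06 and the accessory subunit NDUFA7 −0.09. These 3 lie between the quartiles of all genes.

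Complex II, the succinate dehydrogenase, was represented by SDHB and SDHC. SDHB, the iron-sulfur subunit, had a gene value of −0.06 from a peak in coding sequence (chromosome 1, 17355205 to 17355229, minus strand) with a log average of −6.01. SDHC, a membrane anchor, had 0.27, also from coding sequence (chromosome 1, 161326569 to 161326600, plus strand), with a log average of −5.15. These values lie on either side of the all-gene median.

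Complex IV, the cytochrome c oxidase, was represented by COX8A and COX6A1. COX8A, its small subunit VIII, had the highest log average of all members, −3.39 as the median of its 2 peaks. The authors' deposited table gives its peak in coding sequence (chromosome 11, 63742152 to 63742195, plus strand) a log ratio of −0.15 and its peak in the 3′ UTR (63743905 to 63743969) one of −0.54. Both lie below the all-gene median. COX6A1, subunit VIa, had 0.44 from its 3′ UTR (chromosome 12, 120878480 to 120878515, plus strand) with a log average of −6.76, and the second of its listed peaks, at 120878501 to 120878532, carries the same values.

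Of the 3 factors that assemble the respiratory chain, 2 lay below the all-gene median. NDUFAF4, which acts in the assembly of complex I, had the lowest gene value of all members, −1.07, from 1 peak in coding sequence (chromosome 6, 97344671 to 97344694, minus strand) with a log average of −6.37. COX16, an assembly factor of complex IV, had −0.29 from coding sequence (chromosome 14, 70809377 to 70809403, minus strand) with a log average of −7.23. COX15, which makes the heme A of complex IV, had 0.37 from its 3′ UTR (chromosome 10, 101473790 to 101473811, minus strand) with a log average of −6.54. Without these factors the median of the remaining 13 respiratory chain genes was 0.25.

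The 4 genes of the small subunit of the mitochondrial ribosome all lay above 0, and all of their peaks were in coding sequence. The highest was MRPS2, with 0.70 (chromosome 9, 138393700 to 138393731, plus strand) and a log average of −5.14. MRPS9 had 0.26, MRPS7 0.23 and MRPS10 0.03 (chromosome 6, 42179532 to 42179568, minus strand), and MRPS10 had the highest log average of the ribosomal members, −4.73. With 60.5% of all genes above 0, 4 genes on that side are few to read from. Of the 4 genes of the large subunit, 2 lay above 0. MRPL51 had 0.99 from the only 5′ UTR peak among the members (chromosome 12, 6602362 to 6602398, minus strand), with a log average of −6.43. MRPL20 had −0.27 from coding sequence.

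MRPL17 and MRPL19 had several peaks each, all in 3′ UTRs. MRPL17 was low at both of its peaks (chromosome 11, 6703165 to 6703219 and 6703211 to 6703253, minus strand), which overlap by 8 nt and have log ratios of −0.67 and −0.36 in the authors' deposited table. Its log averages there in the authors' deposited table were −6.09 and −6.54. MRPL19 was not uniform: along chromosome 2 on the plus strand, the authors' deposited table gives 0.40 at 75885692 to 75885720, 0.75 at 75885973 to 75885995 and −0.98 at 75887121 to 75887148. Its first and second peaks are 253 nt apart and the third lies 1126 nt further on, and the log averages in the authors' deposited table were −7.16, −6.57 and −7.13. The gene value of MRPL19, 0.40, therefore does not describe its last peak.

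The import genes diverged. TOMM70A, the receptor for precursors without a cleaved presequence (TOMM70), had 1.06 from coding sequence (chromosome 3, 100105120 to 100105146, minus strand) with a log average of −7.25. TOMM5, a small subunit of the TOM pore complex, had 0.44 from its 3′ UTR (chromosome 9, 37588452 to 37588502, minus strand) with a log average of −7.01. TIMM8B, a small chaperone of the intermembrane space that guides membrane proteins inward, had −0.60 from its 3′ UTR (chromosome 11, 111955887 to 111955909, minus strand) with a log average of −5.31.

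TOMM20, the receptor for cleaved presequences, had 3 peaks in its 3′ UTR and a gene value of −0.44. On chromosome 1, minus strand, the authors' deposited table gives 0.21 at 235274606 to 235274649, −0.95 at 235274775 to 235274797 and −0.44 at 235274861 to 235274917. These peaks lie within 311 nt and do not overlap, and their log averages in the authors' deposited table, −8.01, −8.48 and −8.15, were among the lowest of the members.

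The other members included the proteins of mitochondrial DNA and of the outer membrane channel. TFAM, which packages and transcribes mitochondrial DNA, had 0.49 from its 3′ UTR (chromosome 10, 60155827 to 60155856, plus strand) with a log average of −8.02. VDAC1, the main pore for metabolites in the outer membrane, had 0.34 from its 3′ UTR (chromosome 5, 133308091 to 133308127, minus strand) with a log average of −7.40. CHCHD10, a protein of the intermembrane space mutated in motor neuron disease, had the second highest log average of the members, −3.54. Its 2 peaks in the 3′ UTR lie 12 nt apart (chromosome 22, 24108034 to 24108060 and 24108072 to 24108123, minus strand), with log ratios of 0.52 and 0.01 in the authors' deposited table. CHCHD7 had −0.16 from coding sequence, with a log average of −7.56. IDH1, the cytosolic enzyme, had −0.98 from its 3′ UTR (chromosome 2, 209101171 to 209101219, minus strand) with a log average of −5.91, the second lowest gene value of the members.

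Peaks of the same member differed by a median of 0.39 between the highest and the lowest log ratio over the 7 members with 2 or 3 peaks, up to 1.73 in MRPL19. Over the 524 genes of the table with 2 or 3 peaks the median range was 0.67. A range tends to grow with the number of peaks, and peaks that overlap, as in MRPL17 by 8 nt, may share reads. The sets were not matched for either, and the difference was not tested. In ATP5J2, COX8A and MRPL17 all peaks lay below the all-gene median, and in CHCHD10, MRPL19 and TOMM20 they lay on both sides of it. For the 26 members with 1 peak no such comparison exists, ATP5E, TOMM70A, NDUFA2 and NDUFAF4 among them.

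The members' Ago2 signal was close to that of all genes. The median log average was −6.37 against −6.30 for all genes, with COX8A, CHCHD10, NDUFA2, MRPS10 and MRPS2 the highest. Spearman's rho between log average and log ratio was −0.17 across the 33 members and −0.03 across all genes, given as a description over genes that share the same libraries. High and low log ratios were both found at middling log averages, among them those of ATP5E and NDUFAF4.

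**Figure D3:**
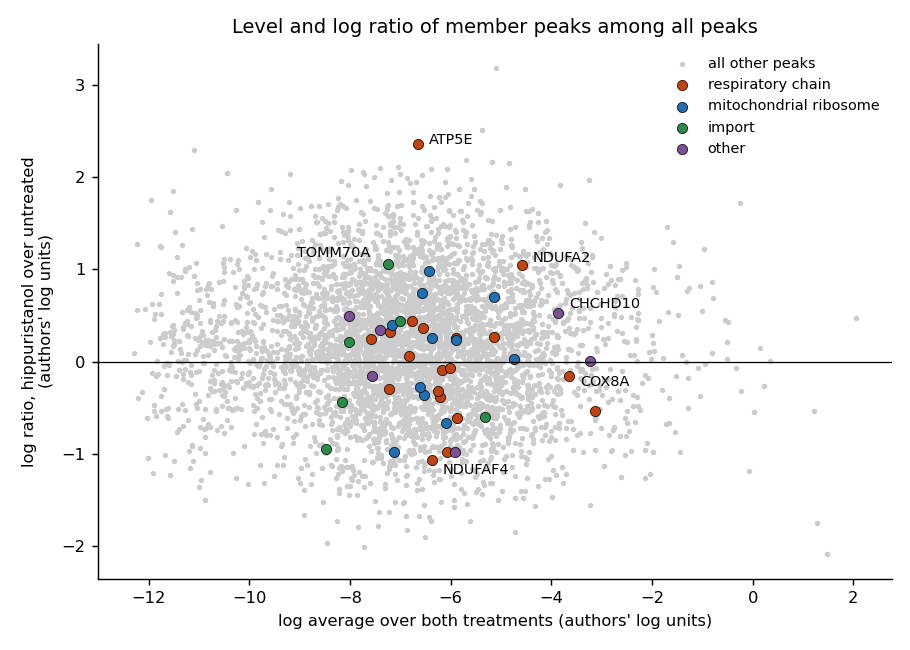
Log ratio (vertical axis) against log average (horizontal axis), both in the authors' log units, for the 42 member peaks, coloured by group, and for all other peaks in grey. The member peaks lie within the cloud of the other peaks, COX8A and CHCHD10 at the right with log averages above −4 and ATP5E near its upper edge.

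Short mRNAs were common among the members. In the GENCODE 29 transcripts matched to all 33 members by RefSeq identifier, the median coding sequence was 486 nt (quartiles 330 and 879), against 1452 nt for the 2049 other genes with a coding transcript, and 31 of the 33 lay below the median of all genes. The median 3′ UTR was 450 nt against 1374 nt, with 26 of 33 below the median of all genes, and the median 5′ UTR was 110 nt against 198 nt, with 24 of 33 below it. A matched transcript need not be the one that carries the peak. That of ATP5J2 has a 3′ UTR of 18 nt, although the gene's 3′ UTR peak spans 36 nt, and that of SDHC has none. Both genes count as short in the 3′ UTR lengths, and ATP5J2 as without a seed match. In the respiratory chain the medians were 348 nt of coding sequence, 222 nt of 3′ UTR and 90.5 nt of 5′ UTR, and 14 of its 16 genes had a 5′ UTR shorter than the median of all genes. In the mitochondrial ribosome they were 667.5 nt, 494.5 nt and 100.5 nt. Among all genes the lengths had little relation to the log ratio, with Spearman's rho of 0.03 for the 5′ UTR, 0.04 for the coding sequence and 0.03 for the 3′ UTR. Across the 33 members the same values were 0.14, 0.06 and 0.08.

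**Figure D4:**
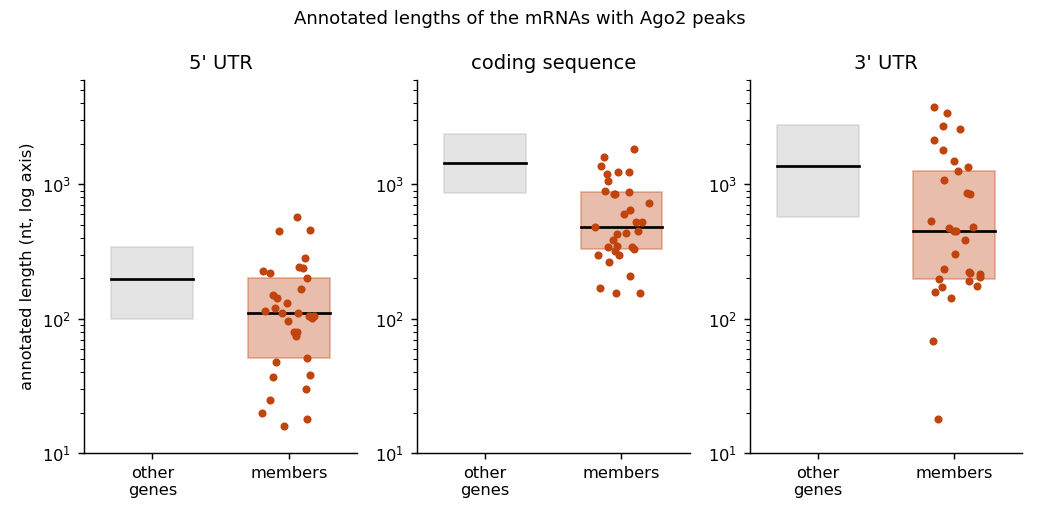
Annotated lengths in nt (vertical log axes) of 5′ UTR, coding sequence and 3′ UTR for the members (points) and the other genes of the table; boxes run from the lower to the upper quartile, with a line at the median. The members' medians of 110, 486 and 450 nt lie below those of the other genes, 198, 1452 and 1374 nt; SDHC, whose matched transcript has no 3′ UTR, has no point in the third panel.

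A larger share of the members' peaks than of other mRNAs' peaks lay in coding sequence, a difference given here as counts without a test. Of the 42 member peaks 17 (40.5%, exact 95% interval 25.6% to 56.7%) lay in coding sequence, 24 (57.1%) in 3′ UTRs and 1 in a 5′ UTR. Of the 3986 peaks in other mRNAs 932 (23.4%, 22.1% to 24.7%) lay in coding sequence and 72.0% in 3′ UTRs. The intervals treat peaks as independent, which peaks of 1 gene are not, and they do not cover variation between libraries. By gene, 15 of the 33 members (45.5%) had peaks in coding sequence only, against 20.2% of all genes. Unlike the comparison by peak, all genes here include the members and 132 genes with peaks in non-coding exons only. The respiratory chain had 10 of 19 peaks in coding sequence, the mitochondrial ribosome 5 of 11 and the import genes 1 of 6.

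Peaks in coding sequence went with short 3′ UTRs in other mRNAs as well. Among genes that are no members, 248 of 668 peaks (37.1%) lay in coding sequence where the 3′ UTR was at most 450 nt, the median of the members, and 683 of 3313 (20.6%) where it was longer. For the members the shares were 11 of 20 (55.0%, 31.5% to 76.9%) and 6 of 22 (27.3%, 10.7% to 50.2%). The length limit was chosen after the values were seen. The members' share was the higher one in both length classes, each with an interval that includes the share of the other genes, and the differences were not tested.

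**Figure D5:**
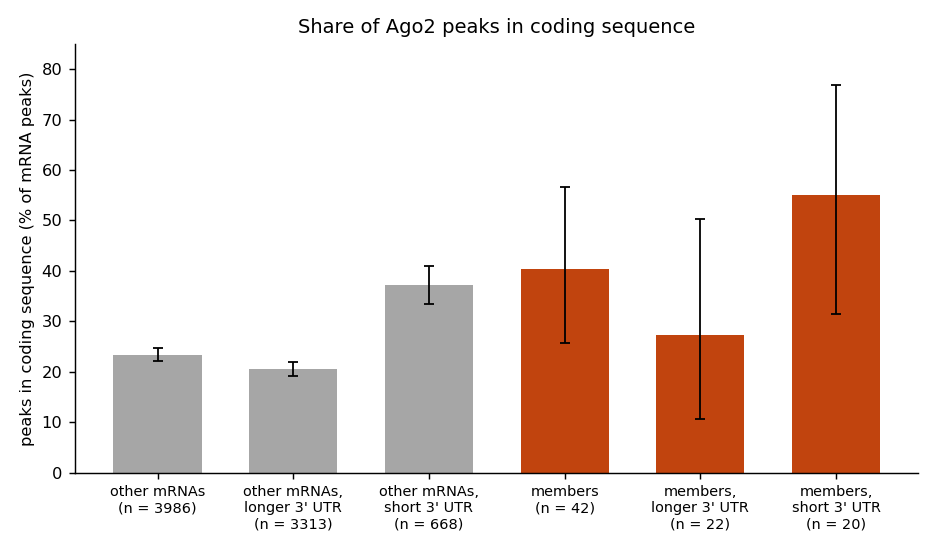
Share of mRNA peaks that lie in coding sequence (vertical axis, percent) for other mRNAs and for the members, also split at a 3′ UTR of 450 nt; bars start at 0 and error bars are exact 95% binomial intervals over peaks. The members' 40.5% lies above the 23.4% of other mRNAs, and in both sets the share is higher where the 3′ UTR is short.

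The members' peaks in coding sequence and in 3′ UTRs had overlapping log ratios. The 17 peaks in coding sequence had a median of 0.03, against 0.20 for all 949 such peaks, and the 24 peaks in 3′ UTRs had 0.11, against 0.15 for all 2894. Above the all-gene median lay 7 of the 17 and 12 of the 24, where 49.1% of all peaks do. The peaks in coding sequence ranged from −1.07 in NDUFAF4 to 2.36 in ATP5E, with quartiles of −0.16 and 0.26, narrower than those of the peaks in 3′ UTRs, −0.55 and 0.41.

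Other nuclear-encoded genes of mitochondria were also spread around the all-gene median. A list of 159 such genes that the name rule does not pick, for metabolism, carriers, proteases, fission and fusion, and expression of mitochondrial DNA, had 25 genes with peaks, where 10.4% of all protein-coding genes have one. That comparison was likewise not limited to expressed genes. The 25 genes had a median gene value of 0.23, with quartiles of −0.36 and 0.60, and 15 of the 25 lay above the all-gene median, where 50% of all genes do. The highest were PPIF, the cyclophilin of the permeability transition, with 1.38, MTHFD2, an enzyme of mitochondrial folate metabolism, with 1.26, and TFB1M, which methylates the ribosomal RNA of mitochondria, with 1.25. The lowest were MTHFD1L, another enzyme of that folate pathway, with −0.84, MCU, the calcium uniporter, with −0.79, and SOD2, the superoxide dismutase of the matrix, with −0.73. Enzymes of the same pathway, MTHFD2 and MTHFD1L, thus stood at opposite ends of the list. Each of these values rests on 1 peak without a replicate check, and the pair was picked from the extremes. Of the 28 peaks of these 25 genes 15 (53.6%, exact 95% interval 33.9% to 72.5%) lay in coding sequence, where 23.4% of the peaks of mRNAs outside the name rule do.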

How the data were processed

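The table analysed holds Ago2 CLIP peaks of 293S cells. Its values are scores that the authors normalized and pooled over libraries before they deposited them, a log average and a log ratio per peak, per the file headers; no source used here states the logarithm's base, the kind of normalization or the peak caller. Bowtie 0.12.8, TopHat, DESeq and the hg19 assembly are named in the submitters' processing notes, with no role or order. Coordinates are printed as listed, on hg19; whether starts count from 0 or 1 is not given.

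Of 4768 listed peaks, 50 repeated the values of another peak of their gene and were left out, leaving 4718. Gene values, medians, quartiles and exact Clopper-Pearson intervals were computed with Python 3.11.15, pandas 2.3.3 and scipy 1.17.1. The calculation of the list medians was run on simulated independent values with a known shift. That run checks the calculation only and says nothing about the reported medians. Tests planned for values per library could not be made. The members, lists and alternatives were chosen with earlier results of these data known. All members are named except 1, which is counted in the summaries but not reported here; fuller values are given for the extremes of each functional class, classes of fewer than 4 genes, the 5 highest log averages and genes with several peaks. Transcripts were GENCODE 29, found for 2025 genes through their RefSeq identifier and for 57 through their symbol. Alternatives changed the gene value, the peaks used, the members, a limit on the log average and the centring.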

Additional observations from a re-analysis of the deposited data

How the results depend on the processing

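The medians of all members, of the respiratory chain, the mitochondrial ribosome and the import genes, and the count of 18 members above the all-gene median, were recomputed under 8 alternatives. With genes above the median log average only, the median of all members was −0.017 over 14 genes, that of the respiratory chain −0.076, that of the import genes −0.60 over 1 gene, and 6 of 14 members lay above the median of the genes left. With CDS peaks only, the respiratory chain had −0.076 and 7 of 17 members lay above. With 3′ UTR peaks only, the mitochondrial ribosome had −0.059, the import genes −0.44, and 10 of 17 lay above. As differences from the median of all genes, the respiratory chain had −0.015 and the import genes −0.17, since those medians lay below that of all genes. The lower counts are of fewer genes tested. The remaining medians kept their sign, and the remaining counts were 17 or 18. No paired analysis was possible because the values are pooled over libraries, and for the same reason no replicate could be left out. Depth is unknown, 26 of 33 members rest on 1 peak, and values near 0 carry no reliable sign.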

Other observations

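The table lists 2 further genes of ATP synthase under older names that the name rule did not pick, C14orf2 (current symbol ATP5MJ) and USMG5 (ATP5MK). C14orf2 had 1 peak in its 3′ UTR (chromosome 14, 104378695 to 104378727, minus strand, hg19), to which the authors' deposited table gives a log ratio of −0.93. USMG5 had 1 peak in coding sequence (chromosome 10, 105152004 to 105152026, minus strand), to which the authors' deposited table gives −1.09. Among all genes 3.43% have a gene value below −1. These 2 genes are in none of the medians of the members or their groups, and those medians were not recomputed with them.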
